A study of Rattus norvegicus with 6 samples.

Results

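Negative feedback on mitogen-activated protein kinase (MAPK) signalling was examined through 10 genes, chosen by name: the phosphatase genes Dusp1, Dusp4, Dusp5, Dusp6 and Dusp10, the Sprouty genes Spry1, Spry2 and Spry4, and the Sprouty-related genes Spred1 and Spred2. Every probe set listed with exactly 1 of these symbols was taken. This gave 11 probe sets for 8 of the 10 genes, among 31042 probe sets and 14217 named genes tested in all, and the expression of Spred1 and Spred2 was not analysed here. The cells were LN4D6, a line derived from a rat mammary tumour. Transcripts were measured on Affymetrix 3' expression arrays in 3 samples of untransfected LN4D6 cells and in 3 samples of the same line transfected with CREB3L1. The labels describe the controls as transfected with nothing, so they are not described as carrying an empty vector. The time after transfection, the form of CREB3L1 and whether the transfected cells were 1 clone are not stated in the labels. Nothing says that the samples were separate cultures, so p-values measure only the spread between these samples, which may be technical. Replicates are numbered in accession order, which pairs none of them across groups.

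MAPK cascades carry signals from growth factor receptors and from stress to the nucleus through chains of kinases, with ERK, JNK and p38 as the final kinases. Several genes that ERK switches on encode proteins that switch the cascade off again. Dual-specificity phosphatases (DUSPs) remove the activating phosphates from the MAP kinases themselves, whereas Sprouty and SPRED proteins act further up, between the receptor, RAS and RAF. CREB3L1 is a transcription factor of the bZIP class that is anchored in the endoplasmic reticulum membrane until proteolysis frees it, and its family binds cAMP response elements (CRE) and elements of the unfolded protein response (UPRE).

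Values are log2 RMA expression values as deposited. Differences are log2 differences, CREB3L1 minus untransfected, ± the standard error, and adjusted p-values are from limma with Benjamini-Hochberg adjustment over all probe sets, with a threshold of 0.05. A fixed log2 value of 5, not derived from these arrays, was used as the background level. Readings below it are not taken as a measured level, and no fold is given where both groups lie below it. CREB3L1 replicate 3 stood apart from the other arrays: the gap between 3' and 5' control probe sets was 4.77 for Gapdh, against -0.16 to -0.10 elsewhere, and 7.44 for beta-actin, against 2.35 to 3.41. Results are therefore given with and without it. The only Creb3l1 probe set was below background in both groups (3.36 and 3.39), and whether it can read the transfected construct is not given in the sources used here. Of 7 luminal mammary epithelial markers only Krt8 was above background, whereas Krt5, Krt14 and Acta2 of the 4 measured basal markers were. None of the 6 fibroblast and 3 measured endothelial markers were above background, while 2 of 5 leukocyte markers (Csf1r and Cd14) were. The leukocyte-defining Ptprc was below it. The mean log2 value of the leukocyte list was 4.95 to 5.06 on untransfected and 4.94 to 4.98 on CREB3L1 arrays, and none of the markers passed the test with limma. The part of these cell types in the results was not tested.

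None of the 11 probe sets passed the test with all 6 arrays, either higher or lower, by limma at an adjusted p below 0.05. Over all probe sets 0.425% passed as higher and 0.963% as lower. At an unadjusted p below 0.05 there were 3 member probe sets, 1 each for Dusp1, Dusp5 and Dusp10, and 9.66% of all probe sets. The groups did not overlap for 2 member probe sets (18.2%), those of Dusp5 and Dusp10, against 14.3% of all probe sets. Without CREB3L1 replicate 3, 1 member probe set was called higher, that of Dusp10, and 0 lower, beside 1.54% and 2.44% of all probe sets. Counted by gene, the median difference of the 8 genes was 0.01 with all arrays and -0.01 without that replicate, and over all genes it was -0.01 and 0.00.

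**Figure D1:**
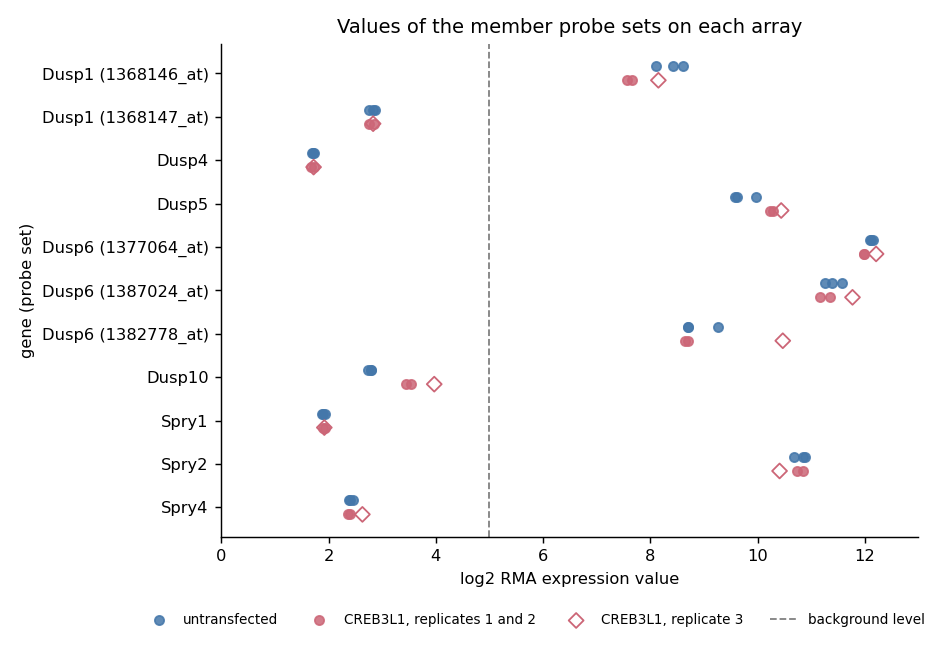
Log2 RMA expression value (x axis) of each of the 11 probe sets (y axis) on each array: blue circles are the 3 untransfected arrays, red circles CREB3L1 replicates 1 and 2, open diamonds CREB3L1 replicate 3, and the dashed line the background level of 5. The probe sets of Dusp4, Dusp10, Spry1 and Spry4 and 1 of Dusp1 lie left of the line on every array, and the groups are apart for Dusp5 and Dusp10.

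Dusp1 encodes the nuclear phosphatase MKP-1, an immediate early gene product that acts mainly on p38 and JNK. Its brighter probe set (1368146_at) read 8.11, 8.61 and 8.43 in untransfected cells and 7.57, 7.65 and 8.15 in CREB3L1 cells. CREB3L1 replicates 1 and 2 lay below all untransfected arrays, but replicate 3 lay above the lowest of them, so the groups overlapped. The difference was -0.59 ± 0.20 (1.51-fold lower, adjusted p = 0.409, 95% interval before adjustment -1.11 to -0.08). Without CREB3L1 replicate 3 it was -0.77 ± 0.15 (adjusted p = 0.0685). Of the alternatives tried only array weights, taken from the scatter of each array's values about the group means, called it (-0.79, adjusted p = 0.0316). The second Dusp1 probe set (1368147_at) was below background on all arrays, at 2.76 to 2.87, and gave -0.01 ± 0.04.

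Dusp5 encodes a nuclear phosphatase specific for ERK and is itself an ERK-induced gene. Its probe set (1368124_at) read 9.58, 9.62 and 9.97 in untransfected cells and 10.23, 10.29 and 10.44 in CREB3L1 cells. All CREB3L1 arrays were above all untransfected ones. The difference of 0.60 ± 0.12 (1.52-fold higher) missed the threshold over all probe sets (adjusted p = 0.133), although its 95% interval before adjustment, 0.29 to 0.91, did not reach 0. It was 0.54 ± 0.13 without CREB3L1 replicate 3 (adjusted p = 0.112) and lay between 0.53 and 0.72 over 13 alternatives, none of which called it. Dusp1 and Dusp5 thus differed in opposite directions, neither of them past the test.

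The sequences upstream of these 2 genes are shown because they hold CRE and UPRE letters, and were picked after values and sequences were seen. They are from RefSeq promoters on assembly GRCr8, where 9 of the 10 genes matched, all but Dusp4. Searched were the 250 bases before each start, both strands, for the CRE palindrome TGACGTCA, its shorter core TGACG, the UPRE core TGACGTG, the ETS core GGAA and the CArG box, the motif of serum response factor. Capitals mark CRE, UPRE and CArG matches, and the matches to TGACG include those within the palindrome and within the UPRE core.
Dusp1, chr10:17184671-17184746, plus strand, 182 to 107 bases before the start: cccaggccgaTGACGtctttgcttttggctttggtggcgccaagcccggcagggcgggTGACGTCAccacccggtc
Dusp5, chr1:262543682-262543733, plus strand, 92 to 41 bases before the start: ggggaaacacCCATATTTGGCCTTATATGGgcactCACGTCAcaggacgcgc

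The Dusp1 stretch holds a full CRE palindrome 124 to 117 bases before the start and a further TGACG at 172 to 168. The Dusp5 stretch holds 2 adjoining CArG boxes, at 82 to 73 and 72 to 63, and a UPRE core on the opposite strand at 57 to 51. Among 33360 upstream windows of this length, 1.59% held the palindrome, 18.2% TGACG, 1.53% the UPRE core and 1.5% a CArG box. TGACG also occurred in 1 of the 2 Spry2 promoters and in that of Spred2, and no CRE, UPRE or CArG match was found in the windows of Dusp6, Dusp10, Spry1, Spry4 and Spred1. The ETS core, found in 93.3% of all windows, was present 6 times in the Dusp6 window and absent from those of Dusp10 and Spry1. These are matches of letters and do not show binding. No binding was measured in these samples.

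Dusp6 encodes the cytoplasmic ERK phosphatase MKP-3, whose transcript is widely used as a readout of ERK activity. Of its 3 probe sets, 1377064_at read 12.12, 12.10 and 12.16 in untransfected and 11.99, 11.99 and 12.21 in CREB3L1 cells. Its difference was -0.06 ± 0.07 (adjusted p = 0.9998), with an interval of -0.24 to 0.12. The second, 1387024_at, read 11.26, 11.39 and 11.58 against 11.16, 11.35 and 11.77, a difference of 0.02 ± 0.18. The third, 1382778_at, read 8.71, 8.70 and 9.26 against 8.65, 8.71 and 10.47, a difference of 0.39 ± 0.54. In all 3 the groups overlapped, and CREB3L1 replicate 3 was the highest array.

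That replicate exceeded the mean of the other CREB3L1 arrays by 0.22, 0.52 and 1.79 in the 3 Dusp6 probe sets, and a departure as large as 1.79 in either direction was seen in 1.90% of all probe sets. Without it the differences were -0.13 ± 0.04, -0.16 ± 0.11 and -0.21 ± 0.19, all negative and none past the test (adjusted p = 0.172, 0.769 and 0.895). Leaving this array out, the one with the wide gap between 3' and 5' control probe sets, thus turned the sign of the second and the third of these probe sets. That of the second, near 0 in the fit of all arrays, also turned without untransfected replicate 1 (-0.06). Array weights turned both as well (-0.12 for the second and -0.15 for the third). These weights come from the scatter of the same expression values and are not a separate measure of RNA quality. The part of RNA quality in these readings was not tested. Of the 6 member probe sets above background this array was the highest of its group in 5, of which 3 are those of Dusp6, against 47.6% of all probe sets above background.

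**Figure D2:**
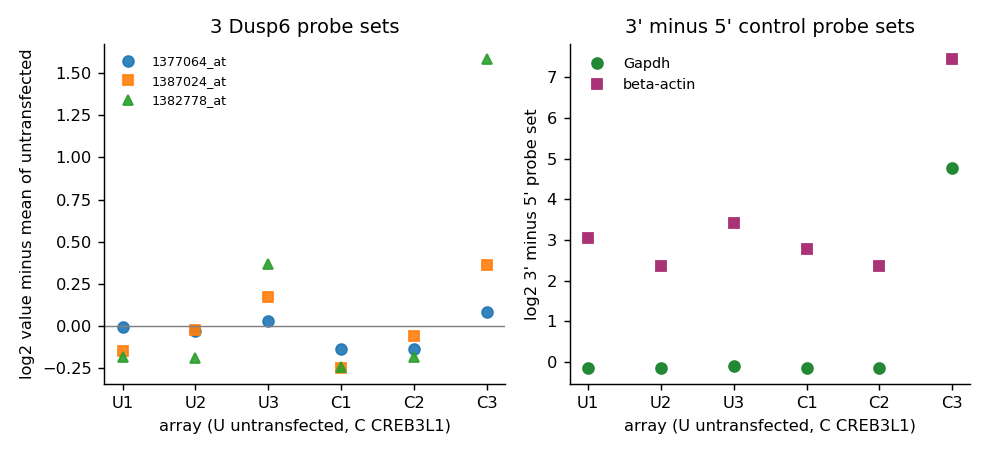
Left, log2 value of the 3 Dusp6 probe sets minus their mean in untransfected cells (y axis) on each array (x axis, U1 to U3 untransfected and C1 to C3 CREB3L1). Right, log2 value of the 3' minus the 5' control probe set of Gapdh and beta-actin on the same arrays: C3 is the array with the highest Dusp6 readings and with gaps of 4.77 and 7.44.

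Dusp10 encodes MKP-5, a phosphatase of p38 and JNK. Its probe set (1394028_at) gave the smallest p of the 11, with 2.79, 2.79 and 2.74 in untransfected cells and 3.54, 3.45 and 3.97 in CREB3L1 cells. The groups did not overlap, yet every value was below the background level, so no fold is given and these readings are not a measured level of the transcript. The difference was 0.88 ± 0.14 (adjusted p = 0.0714). Without CREB3L1 replicate 3 it was 0.72 ± 0.04 and passed the test (adjusted p = 0.00322). It also passed with array weights (0.72, adjusted p = 0.00603) and with a mean-variance trend (0.88, adjusted p = 0.0402). Of 12 alternatives for this probe set only these 3 called it. It missed the threshold without each of the other arrays (adjusted p = 0.124 to 0.257), after quantile normalisation (0.107) and in the ordinary test without moderation (0.264). Averaging probe sets by gene gave 0.88 (adjusted p = 0.0498), but Dusp10 has only this probe set, so its values were unchanged.

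The Dusp10 readings, all below background, were compared with those of 7648 non-member genes above it. The measure was the root mean square distance over the 6 arrays between values centred on their own means. At the smallest distances were 3 genes. They were Pet100, an assembly factor of cytochrome c oxidase, at a distance of 0.065, Rnpc3, a protein of the minor spliceosome, at 0.075, and Sec24d, a cargo adaptor of COPII vesicles, at 0.087. Their differences were 0.78 ± 0.15, 0.85 ± 0.14 and 0.95 ± 0.15 (adjusted p = 0.120, 0.0716 and 0.0624). The distance uses the same 6 values as the difference and is only a description of these arrays.

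Dusp4, which encodes the nuclear phosphatase MKP-2, was read by 1 probe set (1388082_at) at 1.67 to 1.73 on all 6 arrays, below background, with a difference of 0.00 ± 0.03. Neither group gave a Dusp4 value above background.

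Sprouty proteins are membrane-associated inhibitors of receptor tyrosine kinase signalling, and Spry2 was the only Sprouty gene above background. Its probe set (1374864_at) read 10.67, 10.85 and 10.89 in untransfected and 10.74, 10.84 and 10.41 in CREB3L1 cells. The groups overlapped, with CREB3L1 replicate 3 the lowest array. The difference was -0.14 ± 0.13 (adjusted p = 0.9998, 95% interval before adjustment -0.47 to 0.19), and without that replicate it was -0.01 ± 0.08 with an interval of -0.22 to 0.19. Spry1 (1379380_at) was below background throughout, at 1.87 to 1.93, and gave 0.02 ± 0.03. Spry4 (1392529_at) was below background too, at 2.37 to 2.63, and gave 0.06 ± 0.08. In bulk samples such as these, fewer cells with a transcript and less transcript per cell cannot be told apart.

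**Figure D3:**
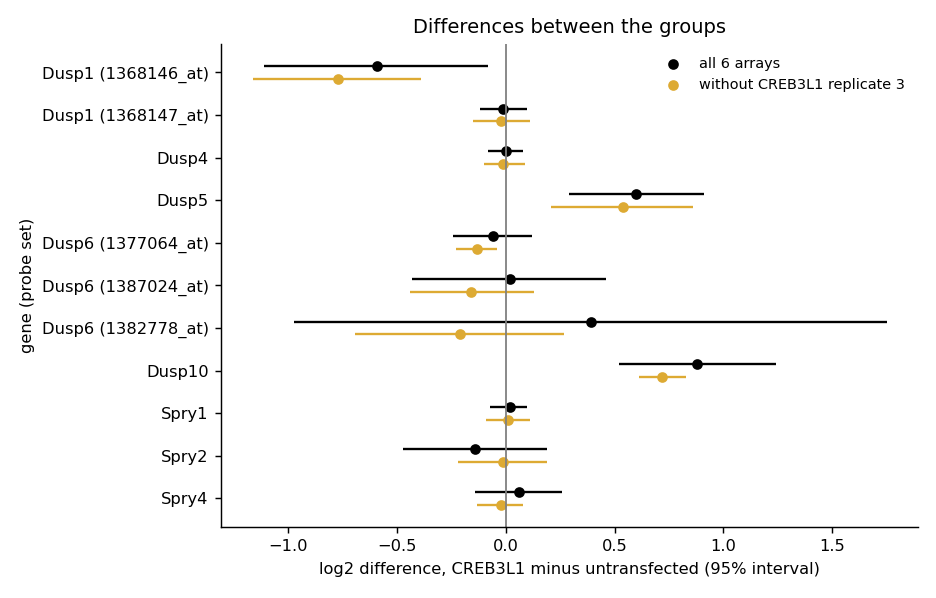
Log2 difference, CREB3L1 minus untransfected (x axis), of each of the 11 probe sets (y axis), with its 95% interval before adjustment, for all 6 arrays (black) and without CREB3L1 replicate 3 (yellow). The intervals of Dusp5, Dusp10 and the brighter Dusp1 probe set do not reach 0 in either fit, nor does that of the Dusp6 probe set 1377064_at without the replicate, and the widest is that of the Dusp6 probe set 1382778_at, -0.97 to 1.75 with all arrays.

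The genes around this feedback were taken from 4 lists, by gene, with the brightest probe set of each. Above background, by the mean of all arrays, were 12 of 14 measured genes of the ERK cascade and 8 of 13 of the JNK and p38 cascades. So were 9 of 16 other MAPK phosphatases and brakes, 16 of 18 ERK output transcripts and 7652 of all 14217 genes. The counts and medians include the genes below background, which carry no measured level. Over all genes 2.10% passed the test, and 5.72% without CREB3L1 replicate 3, while 14.0% had an unadjusted p below 0.05 with all arrays. Of 14 measured genes of the ERK cascade, from receptor to the RSK kinases, 0 were called higher and 1 lower (4 at an unadjusted p below 0.05), and the median difference was -0.04. The gene called was Rps6ka3, which encodes the ERK-activated kinase RSK2. It read 10.72, 10.78 and 10.91 in untransfected and 10.11, 10.13 and 10.31 in CREB3L1 cells. All CREB3L1 arrays were lower, and the gene fell by 0.62 on the log2 scale (SE 0.08, adjusted p = 0.0335). A second probe set passed as well, with means of 10.30 and 9.30 (adjusted p = 0.0209), and the third gave -1.19 ± 0.49 without passing (adjusted p = 0.556). The call on the brightest probe set was lost without each of the arrays other than CREB3L1 replicate 3 (adjusted p = 0.106 to 0.149) and was kept without that one (0.0105).

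Of 13 measured genes of the JNK and p38 cascades none passed (2 at an unadjusted p below 0.05), with a median of -0.03. The smallest p belonged to Map3k1, a kinase upstream of JNK, at -0.22 ± 0.07 (adjusted p = 0.347), and to Mapk14, the p38 alpha kinase, at -0.11 ± 0.04 (adjusted p = 0.456). A second Map3k1 probe set gave -0.72 ± 0.21 (adjusted p = 0.281).

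Of 16 measured genes for other MAPK phosphatases and brakes on RAS signalling none passed with all arrays (2 at an unadjusted p below 0.05), with a median of -0.03. Lrig1, a transmembrane inhibitor of EGF receptor family signalling, read 8.57, 8.41 and 8.92 in untransfected and 6.72, 6.95 and 7.79 in CREB3L1 cells. The groups did not overlap, and the lowest untransfected array lay above the highest CREB3L1 array. The difference was -1.48 ± 0.31 (adjusted p = 0.143), and without CREB3L1 replicate 3 it was -1.80 and passed the test (adjusted p = 0.00989). Errfi1, a feedback inhibitor of the EGF receptor, gave 0.13 ± 0.05 (adjusted p = 0.435).

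Transcripts known to rise with ERK activity did not pass the test either. Of 18 measured none did with all arrays (4 at an unadjusted p below 0.05), with a median of -0.08. Etv5, an ETS factor induced by ERK, read 8.89, 8.95 and 9.31 in untransfected and 8.27, 8.43 and 7.84 in CREB3L1 cells. Its groups did not overlap, with all CREB3L1 arrays lower, and the difference was -0.87 ± 0.19 (adjusted p = 0.155, or 0.0737 without CREB3L1 replicate 3). A second Etv5 probe set was below background in both groups. Epha2, an ephrin receptor gene, read 11.04, 11.09 and 11.16 against 11.43, 11.49 and 11.89, with all CREB3L1 arrays higher. Its difference of 0.51 ± 0.13 (adjusted p = 0.225) passed without CREB3L1 replicate 3 (0.36, adjusted p = 0.0285), and so did that of the cyclin D1 gene Ccnd1 (0.27, adjusted p = 0.0432, against 0.07 ± 0.17 with all arrays). Without that replicate 2 of the 18 were higher and 0 lower, and the median was 0.04.

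**Figure D4:**
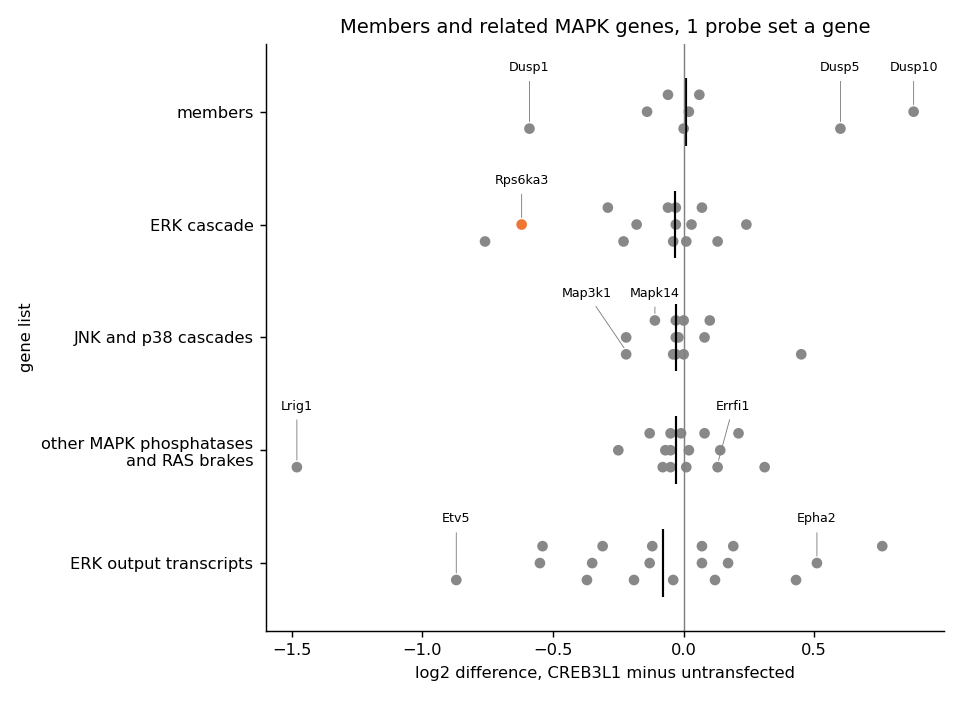
Log2 difference, CREB3L1 minus untransfected (x axis), of each measured gene in the member set and in the 4 related lists (y axis), all 6 arrays and 1 probe set a gene. Orange marks the gene past the adjusted threshold, Rps6ka3, grey the others, and black bars the list medians, which lie between -0.08 and 0.01.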

How the data were processed

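The authors summarised the arrays by RMA (Partek 6.6), per the submitters' processing notes. The deposited values were read as log2 from their range, since no source states the base. The deposited table was used as it stands, with 57 control probe sets set aside. Symbols are those of GEO's platform annotation, and 0 changed when checked against RefSeq (GRCr8). Precision is limited by having 3 arrays a group.

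All 31042 probe sets were fitted by limma 3.58.1 under R 4.3.3 (group means, eBayes moderation, two-sided), with Benjamini-Hochberg adjustment. A listed gene is represented by its brightest probe set on average. The script was tested on simulated data. All members are named; from each list up to 4 genes past the threshold are named, or the 2 with the smallest p. The members and lists were chosen with earlier results of these data known. The CArG box search, the choice of the promoter stretches shown, and Ccnd1 and the genes named in the closing part were added after values or sequences were seen.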

Additional observations from a re-analysis of the deposited data

How the results depend on the processing

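With each array left out in turn, the calls over all probe sets ranged from 28 to 479 higher and from 116 to 756 lower, against 132 and 299 with all arrays, and the highest counts were those without CREB3L1 replicate 3. Member calls ranged from 0 to 1 higher and stayed at 0 lower. Calls in the ERK cascade ranged from 0 to 1 lower, ERK output transcripts from 0 to 2 higher and the other phosphatases and brakes from 0 to 1 lower. Array weights gave 600 higher and 952 lower calls over all probe sets, 1 member higher and 1 lower, 2 lower in the ERK cascade, 3 higher among ERK outputs and 1 lower among the other brakes. A mean-variance trend gave 79 higher calls, with 1 member higher, and the ordinary test without moderation gave 9 higher and 65 lower. Both left 0 calls in the ERK cascade, as did quantile normalisation. Median centring, robust moderation and 1 probe set a gene called 0 members. The cause of these changes was not tested. The background level of 4 or 6 left 6 member probe sets above it, as did 5. Probe sets below background carry no measured level. No paired analysis was possible because the labels give no replicate numbers.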

Other observations

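Some ERK-responsive transcripts varied widely among the 3 untransfected arrays. The immediate early gene Fos read 7.92, 8.96 and 9.56 in untransfected cells and 8.72, 8.73 and 8.43 in CREB3L1 cells, with SDs of 0.83 and 0.17 and a difference of -0.19 ± 0.42. The growth factor gene Ereg read 6.32, 6.19 and 4.81 against 6.56, 6.61 and 6.43, and Phlda1 read 5.67, 5.67 and 4.74 against 4.70, 5.05 and 4.69. The untransfected SDs of Ereg and Phlda1 were 0.84 and 0.54, and their differences 0.76 ± 0.42 and -0.54 ± 0.29. The Ereg value of 4.81 and the Phlda1 values of 4.69 to 4.74 lay below the background level of 5. The CREB3L1 mean of Phlda1 (4.81) lay below it too. Among the untransfected arrays, replicate 3 had the highest Fos, the lowest Ereg and Phlda1, and the highest values for Dusp5 and all 3 Dusp6 probe sets. Plaur, the urokinase receptor gene, read 11.92 and 11.86 on CREB3L1 replicates 1 and 2 and 9.11 on replicate 3, against 11.00 to 11.55 in untransfected cells.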
